A study of Mus musculus with 4 samples.

Results

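Zinc finger genes whose names are Zfp, Zkscan or Zscan followed by a number were followed in the liver of mouse F1 hybrids, to ask how far their alleles from the parental strains were used unequally. Every gene with such a name, a single letter after the number allowed, was taken from the deposited gene tables. There were 126 of them among 8797 listed genes, namely 116 Zfp, 6 Zkscan and 4 Zscan genes. A B6-allele frequency was given for 54 of the 126 genes (42.9%) and for 3632 of all listed genes (41.3%). The livers came from 4 female F1 mice at 5 months of age with no treatment in the labels. 2 of the mice had an MSM mother and a B6 father (the MB cross) and 2 had a B6 mother and an MSM father (the BM cross). B6 and MSM are inbred strains from different mouse subspecies, so each hybrid carried a B6 and an MSM copy of its autosomes. For each mouse the authors deposited the expression of a gene in FPKM, which scales fragments by transcript length and by library size, and its B6-allele frequency, which is the B6 reads divided by all reads that could be assigned to an allele. A frequency of 0.5 stands for equal use of both alleles.

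Most of these genes encode proteins with C2H2 zinc fingers, short loops in which a pair of cysteines and a pair of histidines hold a zinc ion, and arrays of such fingers bind DNA in a sequence-specific way. Many also carry a KRAB box, which recruits the corepressor Trim28 and the histone methyltransferase Setdb1 to silence retrotransposons and other targets, and the Zkscan and Zscan proteins carry a SCAN domain, through which they pair with each other. The family is known for its clusters of similar neighbouring genes, for fast change between species and subspecies, and for members that keep imprints or silence retroviruses.

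The names covered proteins of different build. In the reference protein of each gene (GENCODE M21), the C2H2 pattern was found at least once in 121 of 126 members and 10 times or more in 42, with a median of 8 and a range of 0 to 27. A strict search found a KRAB stretch in 32 members and a SCAN stretch in 15, which were the 10 Zkscan and Zscan genes and 5 Zfp genes (Zfp191, Zfp213, Zfp263, Zfp397 and Zfp445). Diverged boxes are missed by such a search, as in Zfp445, which is known to have a KRAB domain. Zfp36, also called tristetraprolin, carried 2 fingers of the CCCH type, which bind RNA, and no C2H2 finger. The reference coding sequence of the first finger is shown for 3 members. Their mean B6-allele frequency was 0.350 in Zfp445, toward MSM, and 0.649 in Zfp655 and 0.631 in Zscan21, toward B6. Each lies within 1 coding exon (mm10), and the capitals mark the codons of the 2 cysteines and 2 histidines that bind zinc.
Zfp445, chr9:122853399-122853461, minus strand: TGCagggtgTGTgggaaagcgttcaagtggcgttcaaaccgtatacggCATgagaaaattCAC
Zfp655, chr5:145244066-145244128, plus strand: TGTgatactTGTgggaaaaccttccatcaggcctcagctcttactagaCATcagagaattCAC
Zscan21, chr5:138133296-138133358, plus strand: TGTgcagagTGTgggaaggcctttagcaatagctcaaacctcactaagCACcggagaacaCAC
The protein of Zfp445 had 12 such fingers in 986 residues, that of Zfp655 6 in 541 and that of Zscan21 6 in 555.

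The labelled tissue was checked with marker genes. Of 8 hepatocyte markers 7 were listed, with a summed FPKM of 14428 to 19348 per mouse, against 53.5 to 76.0 for 3 of 5 Kupffer cell and leukocyte markers, 91.9 to 111 for 4 of 4 markers of sinusoidal endothelium and 64.6 to 94.2 for 2 of 4 markers of stellate cells. None of 4 cholangiocyte markers was listed. FPKM summed over all listed genes was 529024 to 671875 per mouse. No listed gene had a mean FPKM under 2.50, so members below that level were not analysed here. The files hold no reads per gene or allele, so the depth behind a value is unknown and the precision was taken from the spread between mice.

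Zinc finger genes were weakly expressed in these livers. Their mean FPKM over the 4 mice had a median of 4.59 with quartiles of 3.32 and 7.23, against a median of 11.5 over all listed genes, and 19 of 126 (15.1%) reached an FPKM of 10, against 54.7% of all listed genes. Zfp36, which promotes the decay of mRNAs with AU-rich elements, had the highest level of the members, with an FPKM of 54.6 and 105 in the MB mice and of 39.2 and 50.5 in the BM mice. It also varied most, with a coefficient of variation of 47.0%, against a median of 10.3% over the members and 11.4% over all listed genes. The next in order were Zfp706 with a mean FPKM of 27.8 ± 2.64 (SD, n = 4), the Bub3 partner Zfp207 with 26.7 ± 2.13, the ubiquitin ligase Zfp91 with 22.8 ± 0.832, and Zfp598, a ubiquitin ligase of ribosome quality control, with 21.2 ± 1.92. Zfp706 and Zfp207 differed by less than 1 SD, as did Zfp91 and Zfp598 against the SD of Zfp598, so the order within each pair was not resolved.

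Members with known roles spanned the range of levels. Zfp809, which silences retroviruses of the murine leukaemia type, had an FPKM of 18.2, 22.2, 19.3 and 17.5 in MB replicates 1 and 2 and BM replicates 1 and 2. Zfp445, which helps to keep imprints, had 15.7, 25.7, 16.5 and 15.02 in the same order, with a single high mouse, MB replicate 2. Zkscan3, a repressor of autophagy genes, had 15.2, 17.9, 13.5 and 13.1, so that both MB mice were above both BM mice. Far lower were the activator of small nuclear RNA genes Zfp143 with 2.66 ± 0.357 (SD, n = 4), the retrovirus repressor Zfp932 with 3.19 ± 0.385, Zfp148, also known as ZBP-89, with 4.30 ± 0.417, and the Chd4 activator Zfp410 with 6.70 ± 0.568. Of 38 members listed by name for a textbook role, 28 had an FPKM and 12 a frequency. The most even member over the 4 mice was Zfp219, with a coefficient of variation of 2.22%.

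Whether a member had a frequency went with its coordinate. All 54 members with a frequency lay beyond 100 Mb on chromosomes 1 to 15 or X, or beyond 10 Mb on chromosomes 16 to 19. Of the 57 members beyond these coordinates 54 (94.7%) had a frequency, the exceptions being Zfp106, Zfp598 and Zfp960, and of the 69 members below them 0 had one. Among the other genes the shares were 89.7% and 1.99%. The cause was not tested. Zfp36, Zfp706, Zfp207, Zfp809 and Zkscan3 were among the 72 members without a frequency, so that 1 of the 5 members with the highest expression (Zfp91) could be followed by allele. The median FPKM was 4.25 in members with a frequency and 4.78 in those without.

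The mean B6-allele frequency of the 54 members, taken as the mean of both crosses, was centred near equal use. Its median was 0.520 with quartiles of 0.477 and 0.557, and it ran from 0.318 in Zkscan7 to 0.649 in Zfp655. The interquartile range was 0.0796, close to the 0.0832 of the 3578 other genes and the 0.0808 of the 2432 other genes within the members' range of FPKM. The middle of the distribution therefore had about the same width in both sets, with a median distance from 0.5 of 0.0438 in the members and 0.0415 in the other genes. The tails differed in these counts. No member lay outside 0.3 to 0.7, while 241 of 3578 other genes (6.74%) did, and 47 members (87.0%) against 78.8% of the other genes lay between 0.4 and 0.6. The SD over genes was 0.0659 in the members and 0.108 in the other genes. Genes are not replicates, so these values are given with no test.

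**Figure D1:**
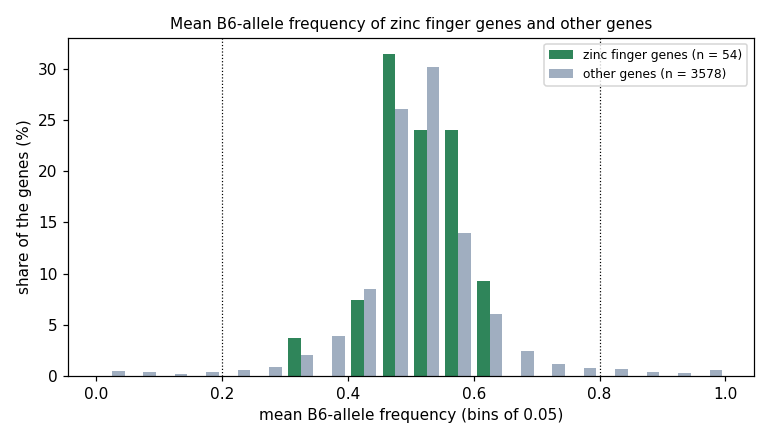
Share of genes (y axis, percent) by mean B6-allele frequency (x axis, bins of 0.05) for the 54 zinc finger genes and the 3578 other genes, with dotted lines at 0.2 and 0.8. The zinc finger genes lie from 0.318 to 0.649, with Zkscan7 (0.318) and Zfp445 (0.350) apart from the rest, while 6.74% of the other genes lie outside 0.3 to 0.7.

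Past the limits that the study's methods set for biased genes, a mean of at least 0.8 or at most 0.2, there was no member, against 1.84% and 1.35% of all genes. In single mice 2 members passed them. Zfp955a had a frequency of 0 and 0.750 in MB replicates 1 and 2 and of 1 and 0.167 in BM replicates 1 and 2, the widest spread of any member. Zkscan7 had 0.405, 0.294, 0.476 and 0.0968, below 0.5 in all 4 mice. How many allele-assigned reads lie behind the values of Zfp955a and Zkscan7 is unknown, and they may be few. The protein of Zfp955a was 95.4% identical to that of its neighbour Zfp955b. The reads were aligned with at most 1 place reported per read. Whether reads were split between such similar genes was not tested, and the values of both are given as uncertain. The same holds for Zfp97 and Zfp960 (96.3% identical) and for Zfp874a and Zfp874b (93.1%).

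Frequencies of the members varied more between mice than those of other genes. The median SD within a cross was 0.0382 for members, 0.0250 for the other genes and 0.0292 for the other genes within the members' range of FPKM, whose median FPKM was 7.41 against 4.25 in the members. Over the members, the SD over the 4 mice was smaller where the expression was higher (Spearman rho = -0.38 over 54 genes of the same 4 libraries). The smallest SD were those of Zfp397 (0.00987), Zfp629 (0.0127) and Zfp384 (0.0130), and the largest those of Zfp955a (0.473), Zkscan7 (0.165) and Zfp511 (0.157).

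**Figure D2:**
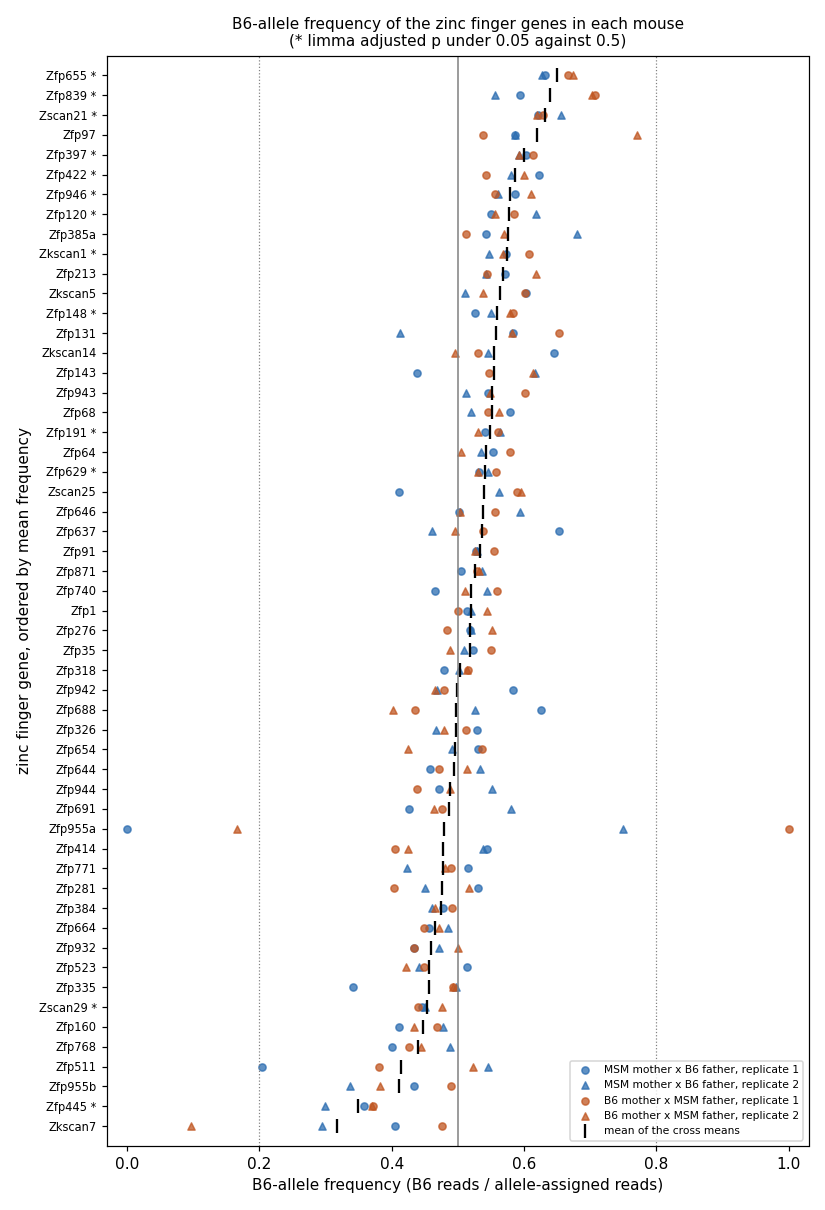
B6-allele frequency (x axis) of the 54 zinc finger genes (y axis, ordered by mean) in each of the 4 mice, with circles for replicate 1, triangles for replicate 2, blue for MSM mother x B6 father, orange for B6 mother x MSM father and a black tick for the mean of the cross means. Zfp655, Zfp839 and Zscan21 stand to the right of 0.5 in all 4 mice and Zfp445 to the left, while Zfp955a reaches from 0 to 1.

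Allelic imbalance of the mean over both crosses was tested by a limma model of log2 odds (B6 over MSM), adjusted over all 3632 genes, and a gene with an adjusted p under 0.05 was called. Toward B6, 11 of 54 members (20.4%) were called, beside a background of 22.6% of all genes, and toward MSM 2 (3.70%), beside 13.6%. In either direction these were 13 members (24.1%) against 36.2% of all genes. At an unadjusted p under 0.05 there were 21 members (38.9%) against 49.1%. Each of the 13 called members lay on the same side of 0.5 in all 4 mice, which is no separate support, as the call uses these same values. Among all 54 members 38.9% lay above 0.5 in all 4 mice and 16.7% below, against 33.8% and 22.9% of the other genes. With every mouse centred at a median frequency of 0.5, 8 members were called toward B6 and 3 toward MSM, and over all genes the calls shifted from 822 toward B6 and 494 toward MSM to 705 and 604. Leaving out a single mouse removed most of the calls. 4 members were called without MB replicate 1, 4 without MB replicate 2, 2 without BM replicate 1 and 0 without BM replicate 2, while the share of all genes called fell to between 4.98% and 14.2%.

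Zfp655, an array of fingers without a KRAB or SCAN stretch in the search, was the member farthest toward B6. Its frequency was 0.631 and 0.627 in the MB mice and 0.666 and 0.674 in the BM mice, so that B6 reads were in excess in every mouse and both BM mice were above both MB mice. The log2 odds were 0.89 ± 0.04 (SE, limma adjusted p = 0.00397), and its expression was even, with an FPKM of 13.0, 11.4, 12.8 and 12.8. Zfp839 had 0.593 and 0.557 in the MB mice and 0.707 and 0.703 in the BM mice, giving log2 odds of 0.85 ± 0.06 (SE; adjusted p = 0.00599, limma). The excess of B6 reads was thus present in both crosses and higher in both BM mice. The protein of Zfp839 held no match to the C2H2 pattern. Its mean FPKM was 2.62, near the lowest of all listed genes (2.50). Zscan21, a SCAN protein with 6 fingers, had 0.621, 0.657, 0.628 and 0.620, and its log2 odds were 0.78 ± 0.06 (SE; adjusted p = 0.00699, limma). Its 4 mice lay between 0.620 and 0.657, with no order by cross.

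The other members called toward B6 were closer to 0.5. Zfp397, which carries a SCAN stretch, had the narrowest spread of all members, with 0.602 and 0.593 in the MB mice and 0.613 and 0.592 in the BM mice (log2 odds 0.59 ± 0.05 SE, limma adjusted p = 0.00793). Zfp422 had a mean frequency of 0.587, Zfp946 of 0.579, Zfp120 of 0.577, Zkscan1 of 0.574, Zfp148 of 0.559, Zfp191 of 0.549 and Zfp629 of 0.541. Zfp191, whose current symbol is Zfp24, is known for its part in myelination. Over the 11 members the median log2 odds was 0.46, against 0.55 over all genes called toward B6. Zfp629 (limma adjusted p = 0.0461) was the called member nearest to the threshold, and Zfp213 (0.569, limma adjusted p = 0.0591) and Zfp91 (0.534, limma adjusted p = 0.0663) lay just beyond it. Zfp97 had a mean of 0.620, above that of Zfp397, but was not called, with 0.586 in both MB mice and 0.538 and 0.770 in the BM mice.

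Toward MSM, Zfp445 and Zscan29 were called. Zfp445, a protein with 12 fingers that acts with Zfp57 to keep imprints, had a frequency of 0.359 and 0.299 in the MB mice and of 0.372 and 0.370 in the BM mice. All 4 mice thus had more MSM than B6 reads, whichever strain was the mother. Its log2 odds were -0.90 ± 0.09 (SE, limma adjusted p = 0.00989). Zscan29 stayed nearer to 0.5, with 0.446, 0.451, 0.439 and 0.477 and log2 odds of -0.27 ± 0.06 (SE, limma adjusted p = 0.0442). Zkscan7 had the lowest mean frequency of all members, and Zfp955b (0.411) and Zfp511 (0.413) followed Zfp445, but none of these 3 was called. Zfp511 ranged from 0.204 to 0.545 over the mice.

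Members with known roles lay on both sides of 0.5. The snRNA gene activator Zfp143 had 0.439 and 0.616 in the MB mice and 0.546 and 0.614 in the BM mice, on both sides of 0.5. Zfp91 had 0.527, 0.528, 0.554 and 0.526, above 0.5 in each mouse but short of the call. Zfp281, which limits Nanog in embryonic stem cells, had a mean of 0.476 ± 0.0596 (SD, n = 4), Zfp326, a member of the DBIRD complex that acts in splicing, of 0.497 ± 0.0287, Zfp318, needed for IgD expression in B cells, of 0.503 ± 0.0166, and Zfp932 of 0.460 ± 0.0322. Of the 12 textbook members with a frequency 4 were called, namely Zfp148, Zkscan1 and Zscan21 toward B6 and Zfp445 toward MSM, beside 36.2% of all genes called.

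The calls were spread over proteins of different build. Of the 11 members with a SCAN stretch and a frequency, 4 were called toward B6 (Zfp191, Zfp397, Zkscan1 and Zscan21) and 2 toward MSM (Zfp445 and Zscan29), and their median frequency was 0.554. Of the 14 members with a KRAB stretch 2 were called, both toward B6, with a median of 0.509, and of the 29 members with neither 5 were called, all toward B6, with a median of 0.518. By the number of fingers, 3 of 11 members with 0 to 4 fingers, 7 of 25 with 5 to 9 and 3 of 18 with 10 or more were called. Over all genes 22.6% were called toward B6, 13.6% toward MSM and 36.2% in either direction. The number of fingers was hardly related to the distance of the mean frequency from 0.5 (Spearman rho = 0.108 over 54 genes of the same 4 libraries). These classes are small and no test of the difference between them was made. The domain classes rest on the strict search, in which no member with a SCAN stretch matched the KRAB pattern. Proteins with a diverged KRAB box, such as Zfp445, therefore fall outside the KRAB class, and the other classes are not free of KRAB proteins.

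Many members were neighbours. Linking members that lay within 1000 kb of each other gave 24 runs with 66 members, and 8 runs held at least 2 members with a frequency, 28 in all. In 5 of the 8 the mean frequencies of the members lay on the same side of 0.5. No such count was made for runs of other genes. Members of a run share a stretch of chromosome and are not independent. On chromosome 9, Zfp445 (chr9:122844529-122866006) and Zkscan7 (chr9:122885685-122898618) had mean frequencies of 0.350 and 0.318, whereas the 5 other genes within 250 kb of them had a median of 0.542 and a range of 0.469 to 0.651. The lowest of the 5 was thus above both zinc finger genes. In one stretch of chromosome 5, Zkscan14, Zkscan5, Zfp655 and Zscan25 had means of 0.540 to 0.649, beside a median of 0.534 and a range of 0.457 to 0.661 in 8 other genes. In another, Zkscan1, Zscan21 and Zfp68 had 0.552 to 0.631, beside a median of 0.508 and a range of 0.405 to 0.816 in 10 other genes. The members of both stretches thus lay within the range of their neighbours. On chromosome 18, Zfp397, Zfp35 and Zfp191 had 0.518 to 0.6001. The fifth run, Zfp326 and Zfp644 on chromosome 5, lay at 0.494 to 0.497. Single mice of both genes lay on both sides of 0.5, at 0.467 to 0.528 in Zfp326 and 0.458 to 0.534 in Zfp644.

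In 3 runs the members were on both sides of 0.5. On chromosome 17, Zfp160 (0.448), Zfp942 (0.499), Zfp943 (0.552), Zfp944 (0.487) and Zfp946 (0.579) lay within 1 run, and of these Zfp946 was called. The mice of Zfp942, Zfp943 and Zfp944 overlapped, and differences between members were not tested. Elsewhere on the same chromosome, Zfp871, Zfp955a, Zfp955b and Zfp414 ran from 0.411 to 0.526. On chromosome 7, Zfp771, Zfp768, Zfp688, Zfp629 and Zfp646 ran from 0.440 to 0.541, beside a median of 0.494 in 24 other genes.

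**Figure D3:**
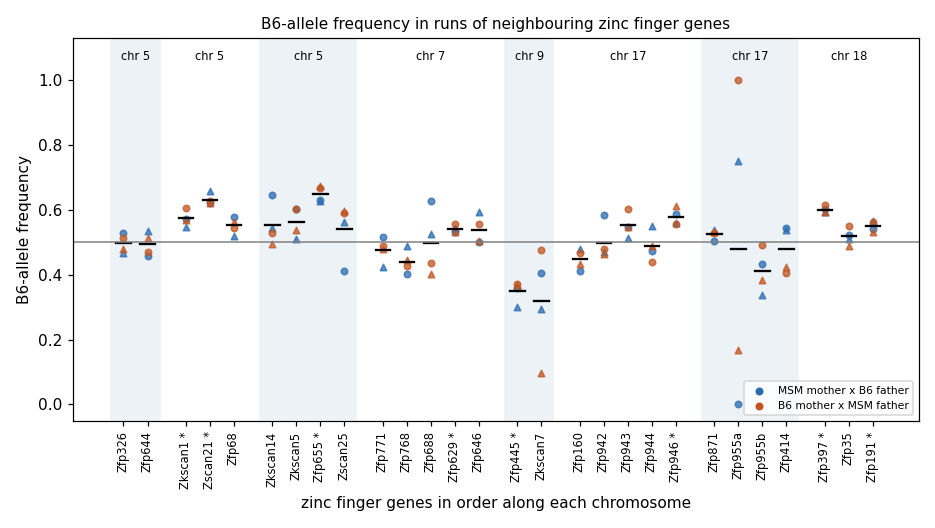
B6-allele frequency (y axis) in the 8 runs of neighbouring zinc finger genes, in order along each chromosome (x axis, shaded by run), with blue for MSM mother x B6 father, orange for B6 mother x MSM father, circles for replicate 1, triangles for replicate 2 and a black bar for the mean of the cross means. Zfp445 and Zkscan7 on chromosome 9 lie below 0.5 in all 4 mice, while the runs on chromosome 5 that hold Zscan21 and Zfp655 have means above 0.5.

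The reciprocal crosses ask whether the allele used depends on the parent it came from. No member was called for a difference in frequency between the crosses (limma, adjusted over all genes), beside a background of 0.0826% of all genes. At an unadjusted p under 0.05 there were 4 of 54 members (7.41%), against 5.23% of all genes, namely Zfp414, Zfp839, Zfp688 and Zfp655. The crosses did not overlap in 10 of 54 members (18.5%), against 34.3% of all genes. With 2 mice against 2, an exact permutation test of a single gene cannot give a p below 0.333. Zfp414 had the smallest p, with 0.543 and 0.538 in the MB mice and 0.405 and 0.425 in the BM mice, so that each cross showed an excess of the paternal allele. The log2 odds differed by 0.73 ± 0.09 (SE, MB minus BM, limma adjusted p = 0.626). In Zfp839 the difference was -0.82 ± 0.12 (SE, limma adjusted p = 0.626), with the B6 allele in excess in both crosses. Zfp688 had 0.626 and 0.526 in the MB mice and 0.435 and 0.403 in the BM mice, the same order as Zfp414 (0.92 ± 0.26 SE, limma adjusted p = 0.873).

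Expression did not differ detectably between the crosses. No member of 126 was called (limma on log2(FPKM + 1), adjusted over 8797 genes), beside a background of 0.0455% of all genes. At an unadjusted p under 0.05 there were 3 members (2.38%), against 8.87%, and the crosses did not overlap in 46 members (36.5%), against 42.4% of all genes. The median absolute log2 difference was 0.09 in the members and 0.14 over all genes. Zfp395 had the smallest p, with an FPKM of 7.72 and 6.84 in the MB mice and of 13.8 and 11.996 in the BM mice. Both BM mice were well above both MB mice, a log2 difference of -0.74 ± 0.12 (SE, MB minus BM, limma adjusted p = 0.299). Zfp949 had 5.42 and 7.93 in the MB mice and 3.75 and 4.75 in the BM mice (log2 difference 0.53 ± 0.19 SE, limma adjusted p = 0.534). Zfp746, also called PARIS, had 5.42 and 5.68 against 4.22 and 4.52 (log2 difference 0.29 ± 0.11 SE, limma adjusted p = 0.552). Zfp36 had the largest log2 difference of the members, 0.76 ± 0.32 (SE, limma adjusted p = 0.570), with its highest value in MB replicate 2. In bulk liver, fewer cells of a type and less RNA per cell cannot be told apart. Beside these values, the summed FPKM of 3 Kupffer cell and leukocyte markers was 53.5 to 59.6 in the MB mice and 70.4 to 76.0 in the BM mice, that of 4 endothelial markers 91.9 to 99.8 and 103 to 111, that of 2 stellate cell markers 80.4 to 94.2 and 64.6 to 73.6, and that of 7 hepatocyte markers 14428 to 14685 and 15109 to 19348. Their part in the result was not tested.

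**Figure D4:**
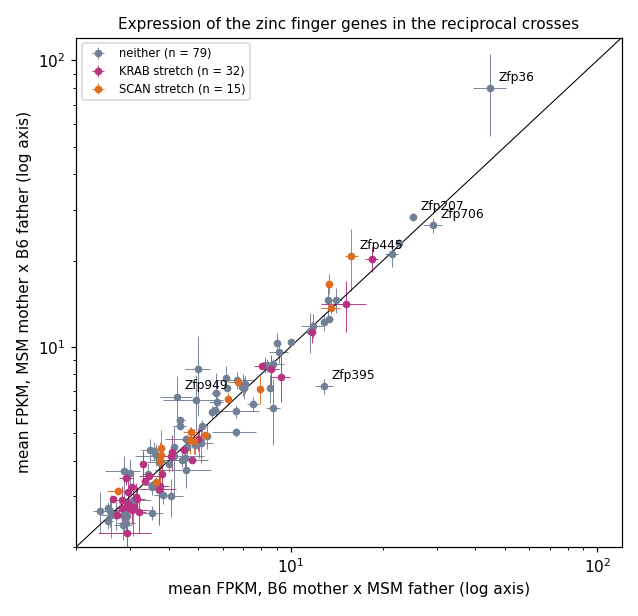
Mean FPKM of the 126 zinc finger genes in the 2 B6 mother x MSM father mice (x axis, log) and the 2 MSM mother x B6 father mice (y axis, log). Bars reach from the lower to the higher of the 2 mice of a cross, and the diagonal marks equality. Colours mark genes with a SCAN stretch (15), a KRAB stretch (32) or neither (79). Zfp395 lies below the diagonal and Zfp36 above it, and neither was called.

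The genes through which KRAB proteins silence their targets were followed as a list of 37 chromatin genes. Of these, 35 had an FPKM, with means of 2.63 to 56.9 and a median of 10.9, and 13 had a frequency. Trim28, the scaffold that binds the KRAB box, had an FPKM of 20.95 and 19.96 in the MB mice and of 25.4 and 24.2 in the BM mice, and Setdb1 had 8.21, 9.44, 9.97 and 8.74. Both BM mice were above both MB mice in Trim28, with a log2 difference of -0.27 that was not called (limma adjusted p = 0.578). In expression 0 of the 35 genes were called between the crosses (limma), beside 0.0455% of all genes, with 5 at an unadjusted p under 0.05, beside 8.87%. Toward B6, 5 of the 13 genes with a frequency were called and toward MSM 0, beside the 22.6% and 13.6% of all genes. At an unadjusted p under 0.05 (limma) there were 5 toward B6 and 1 toward MSM, beside 49.1% of all genes in either direction. The called genes were Morc3 (0.634), a repressor of endogenous retroviruses, the methyl-CpG binding protein gene Mbd2 (0.625), the heterochromatin protein gene Cbx5 (0.616), the histone chaperone gene Rbbp4 (0.615) and Mta3 (0.587) of the NuRD complex. Rbbp7 (0.240, 0.512, 0.333 and 0.206) and Atrx (0.327, 0.520, 0.326 and 0.275), both on the X chromosome, were lowest and varied widely between mice. The median of the 13 genes was 0.518, near the 0.520 of the members. The 5 calls fell to 2 without MB replicate 1 and to 0 without BM replicate 1 or BM replicate 2.

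Promoters of the members held more G and C at the median than all promoters. RefSeq (GRCm38.p6) held the stretch from 250 bases before to 50 after the start for 106 members, 45 of which had a frequency, and for 27025 genes in all. The GC content had a median of 57.8% in the members against 52.7% over all promoters, and the CpG count a median of 17 against 7. On either strand, the GC box GGGCGG was found in 58.5% of the members and in 35.9% of all promoters, the ETS motif CCGGAAG in 20.8% and 9.12%, the CCAAT box in 44.3% and 37.9%, and the TATA box TATAAA in 4.72% and 14.2%. The motifs were not required to be apart. All promoters include those of genes that were not expressed in these livers. The promoters of the called members with the largest log2 odds in each direction are printed, with the GC box and ETS motif in capitals.
Zfp445, chr9:122865957-122866256, minus strand: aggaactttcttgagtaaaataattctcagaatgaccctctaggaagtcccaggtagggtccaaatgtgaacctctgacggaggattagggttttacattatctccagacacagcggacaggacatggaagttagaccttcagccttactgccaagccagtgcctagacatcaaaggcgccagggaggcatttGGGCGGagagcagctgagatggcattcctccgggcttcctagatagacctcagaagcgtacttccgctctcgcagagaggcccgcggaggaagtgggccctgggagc
Zfp655, chr5:145231492-145231791, plus strand: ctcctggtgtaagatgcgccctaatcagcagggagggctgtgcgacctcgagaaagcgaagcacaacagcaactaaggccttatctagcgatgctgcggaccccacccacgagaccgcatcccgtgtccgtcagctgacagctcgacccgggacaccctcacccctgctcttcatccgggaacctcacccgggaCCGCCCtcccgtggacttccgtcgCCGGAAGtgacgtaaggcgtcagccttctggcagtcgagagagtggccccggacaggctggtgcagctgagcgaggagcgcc
The window of Zfp445 held 1 GC box and that of Zfp655 1 GC box, read on the opposite strand, and 1 ETS motif. The sequences are those of the reference, which is the B6 strain, and the MSM bases were not used here.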

How the data were processed

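Liver mRNA of 4 female F1 mice was analyzed, and the cross and replicate number of each mouse came from its labels. The authors used Trim Galore! to trim the 150 bp reads, TopHat2 to align them to SNP-masked mm10 (at most 1 alignment a read), SNPsplit to divide them by allele and Cuffdiff to count each allele's reads. Tool versions are not given in the sources used here. The authors deposited FPKM values and the B6-allele frequency, a fraction.

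Members and gene lists were chosen with earlier results of these data known. Frequencies, limited to 0.01 to 0.99, were turned into log2 odds and tested with limma 3.58.1 in R 4.3.3 with the cross as a term, the intercept (the mean of both crosses) against 0. Expression was tested with limma, with a variance trend, on log2(FPKM + 1), which understates changes of low values, where the mean FPKM was at least 1. Two-sided p-values were adjusted by Benjamini-Hochberg over all genes tested (threshold 0.05), and the steps were tested on simulated data. Named genes are those with the highest or lowest FPKM, the largest or smallest log2 odds, the smallest p between crosses, the largest or smallest SD, textbook roles or zinc finger neighbours. Zfp219 and Zfp276 were named after their values were seen. Positions and proteins came from GENCODE M21 and promoters from RefSeq. Same-numbered mice of the crosses correlated with 0.146 in log2 odds and 0.00375 in expression and share only a number. Python 3.11.15 with pandas 2.3.3 and matplotlib 3.10.9 made tables and plots. Other scales, limits, filters, thresholds and normalizations, a replicate block and leaving out each mouse were tried.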

Additional observations from a re-analysis of the deposited data

Results flagged for a closer look

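In each of these results 1 mouse stood far from the other 3 by Dixon's criterion for 4 values, which chance alone meets in about 1 in 20 groups. For frequency there were 3 of 54 members. Zfp335 had 0.341 in MB replicate 1 and 0.492 to 0.497 in the other mice, Zfp942 had 0.583 in MB replicate 1, and Zfp91 had 0.554 in BM replicate 1. For FPKM there were 9 of 126 members. MB replicate 2 was the distant mouse in 5 of them, with 8.10 in Zfp281, 4.39 in Zfp414, 25.7 in Zfp445, 11.4 in Zfp655 and 5.13 in Zkscan7. MB replicate 1 was distant in 3, with 2.68 in Zfp318, 4.34 in Zfp944 and 4.56 in Zkscan14, and BM replicate 1 in Zfp512 with 3.75. Zfp445 and Zkscan7, neighbours on chromosome 9, were both distant in MB replicate 2. The share over all genes is not given here, so whether MB replicate 2 was as often distant in other genes is unknown. The causes were not tested.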

How the results depend on the processing

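The log2 odds of the 13 called members kept their sign under every alternative that was run, but this was largely fixed in advance. The other limits, the FPKM filter, the variance trend and the block left these log2 odds unchanged. Leaving out a mouse cannot change the sign of a member that lies on the same side of 0.5 in all 4 mice. Toward B6, 4 members instead of 11 were called with a mean FPKM of at least 5 (19 members tested). This filter took members out of the test, and the 6 called members that passed it all stayed called. In either direction 31.6% of the 19 were called, beside 40.3% of all genes that passed. With a replicate block 5 members were called toward B6. Toward MSM, 1 member instead of 2 was called with a variance trend on expression. Of the 13 called members, 6 were also called with the block and 10 with each mouse centred at 0.5. Leaving out each mouse in turn gave 0 to 3 members toward B6, 0 to 1 toward MSM and 0 to 5 corepressor genes (5 with all mice), with 1 mouse left in a cross and assumed to vary like the others. Corepressor calls were 2 with a mean FPKM of at least 5 and 3 with the block. In expression the block called 3 members (Zfp276, Zfp36 and Zfp395) instead of 0, and 285 of all genes instead of 4, while the numbers of the mice were not shown to mark a pairing, so the block values are given here only. Over all genes the block gave 481 calls toward B6 and 294 toward MSM, and leaving out a mouse 108 to 315 and 73 to 199, and in expression 13 to 21. The interquartile range of the members was 0.0733 to 0.0908, beside 0.0808 to 0.0870 in the other genes. Which set was wider changed with the mouse left out. The members were wider without MB replicate 1 (0.0908 against 0.0852), MB replicate 2 (0.0900 against 0.0870) or BM replicate 2 (0.0864 against 0.0857). They were narrower without BM replicate 1 (0.0787 against 0.0852). The range of the members was 0.0784 without members at least 90% identical to another, an alternative chosen after seeing the data. No reads per gene were at hand, so how far depth limits these frequencies is unknown.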

Other observations

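The number of members differed between chromosomes, and no count of all listed genes per chromosome is given beside it. Chromosome 7 held 22 of the 126 members, of which 7 had a frequency, with a median of 0.498. Chromosome 17 held 15, of which 13 had a frequency (median 0.499), and chromosome 5 held 13, of which 11 had one (median 0.552). Chromosome 11 held 7 members and none with a frequency. These shares went with the coordinates given above, 10 Mb on chromosome 17 and 100 Mb on chromosomes 5, 7 and 11. By level, the 18 members of the lowest FPKM tertile had a median SD of frequency over the mice of 0.0401, the 24 of the middle tertile 0.0431 and the 12 of the highest tertile 0.0204.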
